A study of Rattus norvegicus with 20 samples.

Results

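After monocrotaline (MCT), gene expression in the right ventricle (RV) of male rats was compared with that in the left ventricle (LV). These were 10 of the 20 libraries of the study, 5 RV MCT and 5 LV MCT, taken by their labels. The remaining 10 were RV saline and LV saline, with 5 of each. Rats weighed 250 g when they received either saline or MCT, the latter at 60 mg/kg, and were killed once a discomfort score had reached a set limit. Strain and age were not given in the sources used here. RV and LV libraries that share a description code and a replicate number are called pairs 1 to 5 below. No label says that the libraries of a pair come from 1 rat, or that pairs come from separate rats, and the p-values therefore reflect only library-to-library spread, which may be technical.

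MCT is a plant alkaloid whose metabolites injure the small vessels of the lung and so raise the pressure against which the RV pumps. The RV normally ejects into the low-resistance lung circulation and has a thin wall, while the LV ejects into the systemic circulation. The chambers also arise largely from different progenitor pools of the embryonic heart. The comparison asks which expression differences between the chambers are present under this load. The deposited counts carry Ensembl gene IDs without gene names, so 4 genes are named by ID and the others are described by number. For the same reason the label of the tissue could not be checked against muscle markers, and no sequence is shown.

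Libraries were 3' end counts of messenger RNA with totals from 3272420 to 9227104 counts among the MCT libraries. The 10 genes with most counts held 25.7% to 50.2% of an MCT library. Neither measure differed between the chambers after MCT beyond the spread of the libraries. Total counts averaged 5410000 ± 1796000 (SD, n = 5) in the RV and 5820000 ± 2547000 in the LV (two-sided exact permutation test, p = 0.78, Benjamini-Hochberg p = 0.79 over 4 library measures). The share of the 10 top genes averaged 38.18% ± 7.27 in the RV and 35.85% ± 9.65 in the LV (exact permutation p = 0.67, Benjamini-Hochberg p = 0.79). Genes detected at equal depth averaged 14120 ± 192 in the RV and 14150 ± 225 in the LV (exact permutation p = 0.79, Benjamini-Hochberg p = 0.79).

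MCT pair 5 ran against its chamber labels in many, but not all, of the genes that separate the chambers of the other pairs. The main results below are therefore also given without it. However, no MCT pair followed the other 4. Over all genes tested, the RV minus LV difference of each MCT pair was correlated with the mean of the other 4 MCT pairs. The Pearson correlations were -0.14, -0.08, -0.20, -0.29 and -0.44 in pairs 1 to 5. Those of the saline pairs with the other 4 saline pairs ran from 0.11 to 0.42. RV MCT replicate 4 and LV MCT replicate 3 also stood apart: their 10 leading genes held 48.6% and 50.2% of counts, against 25.7% to 42.2% in the other 8 MCT libraries. ENSRNOG00000033609 is a gene that was higher in the LV than in the RV in every saline library and in MCT pairs 1 to 4. It was at 13.2 CPM (counts scaled to library size) in the library labelled RV MCT replicate 5 and at 6.05 CPM in the library labelled LV MCT replicate 5. This gene was picked by its p after MCT without pair 5, a choice that favours genes reversed in that pair. ENSRNOG00000008141, also LV-high after saline, kept its direction in pair 5, at 164 CPM in the RV library and 458 CPM in the LV library. That gene was reversed in MCT pairs 1 and 2. Whether the labels of pair 5 are correct was not tested, and no library was moved to another group.

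Across all 5 pairs no gene differed between RV and LV after MCT at an adjusted p under 0.05 (edgeR quasi-likelihood test over 10929 genes, 0% called). The smallest adjusted p was 1, and 203 genes, or 1.86%, had an unadjusted p under 0.05. DESeq2 and limma voom also called 0, with 206 and 625 genes at an unadjusted p under 0.05. The limma voom fit used quality weights, which give less weight to more variable libraries, and its smallest adjusted p was 0.11. After saline the same edgeR fit called 8 genes (0.0732%), 6 higher in the RV and 2 higher in the LV. The saline libraries fitted alone gave 80 of 9938 genes (0.805%).

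The RV MCT and LV MCT libraries did not overlap in 12 genes, or 0.11% of those tested. Of these, 8 (0.0732%) were higher in the RV and 4 (0.0366%) higher in the LV. After saline the chambers did not overlap in 367 genes, or 3.36%. Without MCT pair 5 the MCT chambers did not overlap in 297 genes, or 2.72%, and groups of 4 libraries separate more easily than groups of 5. The libraries left without pair 5 can be split into groups of 4 in 35 ways. A gene separates the groups in at most 1 of these ways. Random labels would thus separate up to 1 in 35 genes, about the share found. The rise from 12 to 297 is therefore not read as chamber differences regained by leaving out pair 5. Of the 10929 genes tested, all 5 MCT pairs had the RV above the LV in 145 and below it in 122, against 827 and 867 in the saline pairs. Random signs would also give all 5 pairs the same direction in some genes. The 145 and 122 are therefore not read as genes with a consistent chamber difference. The SD of the RV minus LV difference between pairs had a median of 0.56 on the log2 scale after MCT and 0.39 after saline.

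The absence of calls does not show that the chambers were alike. Among the 10929 genes the median absolute RV minus LV difference after MCT was 0.13 on the log2 scale, with a median SE of 0.24. The 95% confidence interval lay within a 2-fold difference in either direction for 8971 genes (82.1%). This held for 94.3% of the genes above 37.8 CPM and for 56.6% of those below 5.34 CPM, which were the 2732 most and the 2733 least abundant genes. The interval reached a 4-fold difference for 94 genes. Only 60 genes differed by over 2-fold in the estimate itself, 40 higher in the RV and 20 higher in the LV, against 158 and 66 after saline.

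The chamber accounted for 6.36% of the variance of log2 CPM among the 10 MCT libraries, against a median of 9.73% over all splits. Pair accounted for 46.3%. That share was not tested, and 5 pairs among 10 libraries take a large share of any variance. Among all splits of these libraries into groups of 5, the labelled split ranked 117 (exact permutation p = 0.93). Among the saline libraries the chamber accounted for 16.8%, against a median of 10.2% over splits, and the labelled split ranked 9 (exact permutation p = 0.071). Without MCT pair 5 the chamber share was 11.9%, as was the median over splits, and the labelled split ranked 19 of 35 (exact permutation p = 0.54).

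The genes that separated the chambers after saline were then read in the MCT libraries. The 80 genes called in the 10 saline libraries alone were used, 37 higher in the RV and 43 higher in the LV. The MCT libraries had no part in that choice. After MCT, 66 of the 80 (82.5%) kept the direction they had after saline, against 56.5% of all genes tested. The median difference in the saline direction was 0.30 on the log2 scale after MCT. It was 1.14 after saline, a value raised by the choice of the genes. An unadjusted p under 0.05 after MCT was reached by 18 of the 80 (22.5%), against 1.86% of all genes tested, and none passed the adjusted threshold. The RV MCT and LV MCT libraries overlapped in all 80, where 0.11% of all genes tested did not, and nothing is read from that count. Without pair 5 they did not overlap in 12 of the 80, against 2.72% of all genes tested.

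The levels of the chambers lay closer together after MCT for the RV-high and for the LV-high genes. The level of the 37 RV-high genes, as mean log2 CPM against the mean of the saline libraries, was 0.65 ± 0.19 (SD, n = 5) in RV saline and 0.28 ± 0.19 in RV MCT. In the LV it was -0.65 ± 0.13 after saline and 0.03 ± 0.31 after MCT. The 43 LV-high genes were at -0.66 ± 0.07 in RV saline and -0.29 ± 0.37 in RV MCT, and at 0.66 ± 0.18 in LV saline and 0.21 ± 0.28 in LV MCT. These genes were chosen by their saline levels, which favours a smaller distance elsewhere, and no test is given.

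A chamber score, the mean over the 80 genes taken positive where the RV was higher after saline, showed which libraries carried the difference. It was 0.22, 0.11, 0.54, 0.57 and 0.01 in RV MCT replicates 1 to 5 and -0.05, -0.04, -0.55, -0.10 and 0.22 in LV MCT replicates 1 to 5. RV saline libraries ran from 0.47 to 0.74 and LV saline libraries from -0.79 to -0.50. Thus 3 MCT libraries, RV replicates 3 and 4 and LV replicate 3, lay within the saline range of their own chamber. The other 7 lay between -0.10 and 0.22, outside both saline ranges, and the part of library composition in this was not tested. Among these 7 the highest was the library labelled LV MCT replicate 5.

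**Figure D1:**
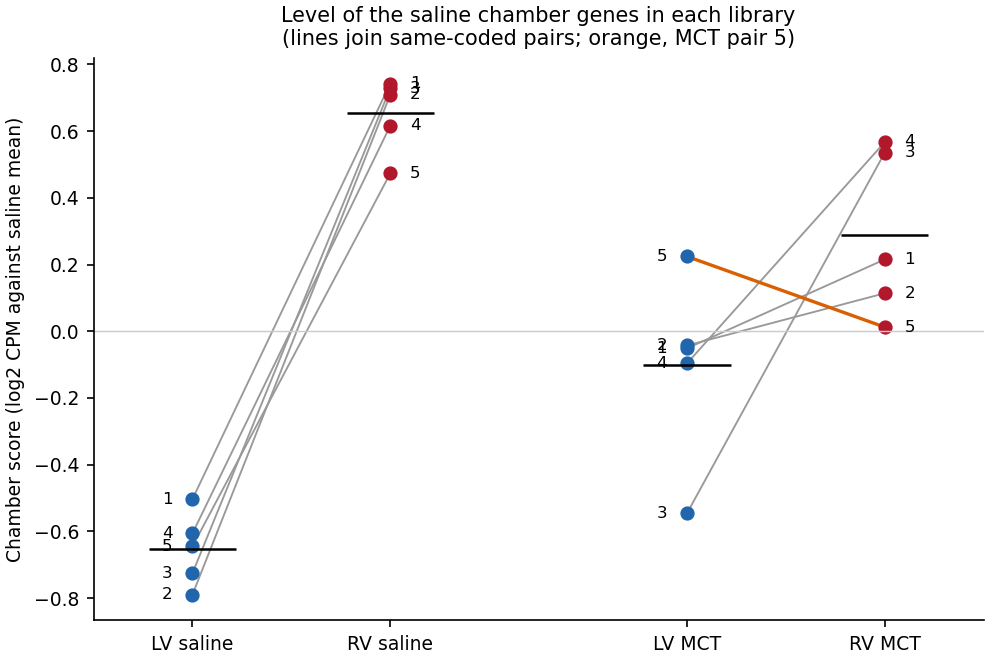
Chamber score of each library (y axis, log2 CPM relative to the saline mean, 80 genes chosen in the saline libraries), by group, with replicate numbers; lines join same-coded pairs and black bars are group means. The saline chambers stand apart by the choice of genes, the MCT libraries lie closer together, and pair 5 (orange) is the MCT pair whose LV library, at 0.22, lies above its RV library, at 0.01.

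Among the pairs left out in turn, the retained difference was smallest without MCT pair 3. The median of the 80 genes was then 0.12, against 0.30 with all pairs. Without MCT pairs 1, 2 and 4 in turn it was 0.34, 0.34 and 0.29. Without LV MCT replicate 3 and RV MCT replicate 4 together it was 0.15. With genes chosen in 4 saline pairs it was 0.46 as the median of 5 choices. Without MCT pair 5 it was 0.46 for the 80 genes, of which 65 kept their direction (59.5% of all genes did), and 29 of the 80 genes (36.2%) then had an unadjusted p under 0.05, against 6.15% of all genes tested. Of the RV-high genes 30 of 37 and of the LV-high genes 35 of 43 then kept their direction.

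**Figure D2:**
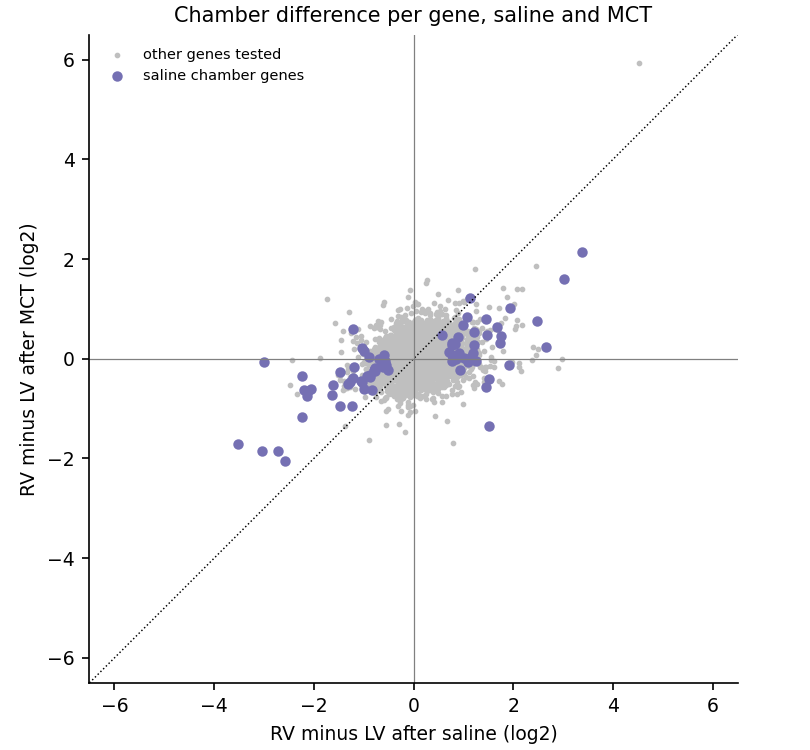
RV minus LV difference per gene (log2, edgeR fit of all 20 libraries) after saline (x axis) and after MCT (y axis); each point is 1 of 10929 genes, purple points are the 80 saline chamber genes and the dotted line marks equal differences. Most purple points lie nearer to 0 after MCT than after saline, and 66 of 80 keep their side.

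Read pair by pair, the 80 genes differed by a median of 0.24 in MCT pair 1 and 0.21 in MCT pair 2, in the saline direction. Pair 3 had 0.94 and pair 4 had 0.42. In pair 5 the median was -0.24, the opposite direction, and 26 of 80 genes kept their saline direction. In pairs 1 to 4 the numbers were 51, 49, 72 and 55. Shares of all genes in single pairs are not given here. A difference particular to the 80 genes therefore cannot be told from a shift of the whole pair. For comparison, each saline pair was read with a set chosen in the other 4 saline pairs. These sets held 20 to 50 genes, and the median in the pair left out ran from 1.04 to 2.11.

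Of the 80 genes, 22 kept their saline direction in each of MCT pairs 1 to 4, and 20 of these 22 pointed the other way in pair 5. The same count over all genes is not given here. Across all 10929 genes, which are not independent, the difference in pair 5 had a Pearson correlation of -0.13 with the mean saline difference. In MCT pairs 1 to 4 the values were 0.15, 0.05, 0.28 and 0.13. These correlations are descriptions, since the genes of a pair share 2 libraries.

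Genes chosen within the MCT libraries were also read. For each pair in turn, the 100 genes with the smallest p in the other 4 MCT pairs were read in the pair left out. In pairs 1, 2 and 3 the direction was kept by 46, 45 and 44 of 100 genes, and in pair 4 by 25. In pair 5 it was kept by 9, with a median of -0.92 on the log2 scale. The 100 genes chosen in pairs 1 to 4 kept their direction after saline in 84 of 100 cases, with a median of 0.35. Without pair 5, 59.5% of all genes tested had the same direction after MCT and after saline. With pair 5 among the pairs that chose, 62 to 79 of 100 kept their direction after saline, and 56.5% of all genes did with all 5 MCT pairs.

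**Figure D3:**
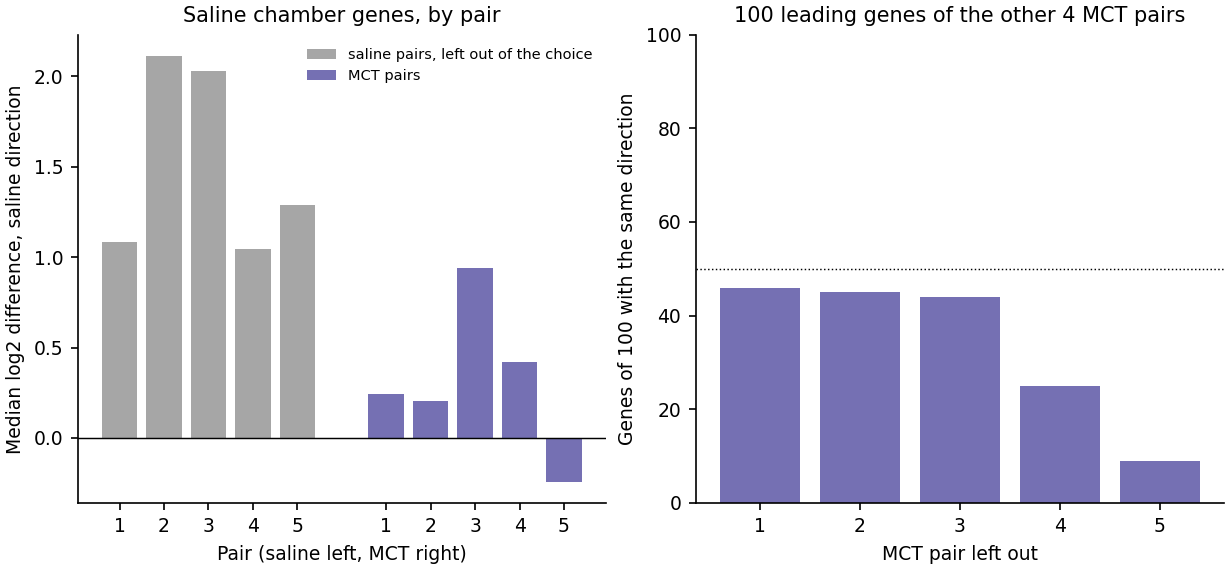
Left, median RV minus LV difference (log2) in the saline direction: grey bars are saline pairs, each read with genes chosen in the other 4 saline pairs, and purple bars are MCT pairs read with the 80 saline genes, so the gene sets differ. Right, how many of the 100 leading genes of the other 4 MCT pairs had the same direction in the pair left out, with a dotted line at 50; pair 5 is lowest in both, at -0.24 and 9.

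Pairs also differed in how far the chambers stood apart. The number of genes over 2-fold apart was 1197, 1051, 1262, 2118 and 1502 in MCT pairs 1 to 5, and 488 to 1475 in the saline pairs. For 4 of the 5 RV MCT libraries, the LV MCT library with the most similar deviations from its group mean was not the same-coded one. RV MCT replicate 4 correlated best with LV MCT replicate 3 (0.62 across genes), RV MCT replicate 5 with LV MCT replicate 1 (0.43) and RV MCT replicate 1 with LV MCT replicate 5 (0.51).

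The members are illustrated by 4 genes. They were picked from the 80 after their values were seen, in each direction the gene with the smallest p for a change of the chamber difference and the gene with the smallest p after MCT without pair 5. ENSRNOG00000008141 was LV-high after saline and had the smallest p of the LV-high genes for a change. After saline it averaged 657 ± 131 CPM (SD, n = 5) in the LV and 81.8 ± 25.5 CPM in the RV. In RV MCT replicates 1 to 5 it was at 609, 694, 166, 95.6 and 164 CPM. In LV MCT replicates 1 to 5 it was at 253, 262, 571, 276 and 458 CPM. RV MCT replicates 1 and 2 were thus above all LV MCT libraries, while in pairs 3, 4 and 5 the LV was higher.

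The RV minus LV difference of ENSRNOG00000008141 was -3.01 on the log2 scale after saline (SE 0.45, edgeR adjusted p = 0.0080) and -0.07 after MCT (SE 0.41, edgeR adjusted p = 1). Without pair 5 the difference after MCT was 0.21 (SE 0.46, edgeR adjusted p = 0.99), with the sign turned, and it also turned without any 1 of RV MCT replicates 3, 4 and 5 or LV MCT replicates 3 and 5. The change between treatments was 2.93 (SE 0.60, unadjusted p = 7.7e-05, edgeR adjusted p = 0.85). DESeq2 (adjusted p = 0.0063) and limma voom (adjusted p = 0.047) called this change, and so did edgeR without LV MCT replicate 3 and RV MCT replicate 4 (adjusted p = 0.045).

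ENSRNOG00000007159 was the corresponding RV-high gene. After saline it averaged 37.8 ± 26.8 CPM (SD, n = 5) in the RV and 5.86 ± 1.85 CPM in the LV. In RV MCT replicates 1 to 5 it was at 18.0, 17.8, 19.3, 12.6 and 8.68 CPM, and in LV MCT replicates 1 to 5 at 13.8, 9.04, 5.37, 17.1 and 19.2 CPM. The MCT libraries of both chambers covered nearly the same range, with the RV higher in pairs 1, 2 and 3. Its difference was 2.67 after saline (SE 0.45, edgeR adjusted p = 0.020) and 0.24 after MCT (95% confidence interval -0.63 to 1.10, edgeR adjusted p = 1). Without pair 5 it was 0.56 after MCT (SE 0.46, edgeR adjusted p = 0.98). Leaving out a single library moved it to 0.06 for LV MCT replicate 3, to 0.14 for LV replicate 2 and to 0.15 for RV replicate 3. The value was 0.38 for LV replicate 4, 0.41 for LV replicate 5 and 0.40 for RV replicate 5. The change of -2.43 (SE 0.61) did not pass (unadjusted p = 0.00068, edgeR adjusted p = 1).

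ENSRNOG00000061379 had the higher mean in the RV after both treatments. It averaged 179 ± 21.2 CPM (SD, n = 5) in RV saline and 89.5 ± 8.14 CPM in LV saline. In RV MCT replicates 1 to 5 it was at 177, 163, 247, 184 and 121 CPM, and in LV MCT replicates 1 to 5 at 102, 113, 105, 86.8 and 150 CPM. The lowest RV MCT library and the highest LV MCT library were those of pair 5. The difference after MCT was 0.68 with all pairs (SE 0.17, edgeR adjusted p = 1). Without pair 5 it was 0.93 (SE 0.16, edgeR adjusted p = 0.022), close to the 0.995 found after saline (SE 0.17).

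ENSRNOG00000033609 had the higher mean in the LV after both treatments, at low levels. It averaged 5.92 ± 0.89 CPM (SD, n = 5) in LV saline and 0.95 ± 0.55 CPM in RV saline. In LV MCT replicates 1 to 5 it was at 21.3, 18.1, 4.42, 25.6 and 6.05 CPM, and in RV MCT replicates 1 to 5 at 1.55, 2.01, 0.41, 1.75 and 13.2 CPM. LV MCT replicates 1, 2 and 4 lay above all LV saline libraries, and RV MCT replicate 5 stood apart from the other RV MCT libraries. The difference after MCT was -2.04 with all pairs (SE 0.59, edgeR adjusted p = 1) and -3.70 without pair 5 (SE 0.48, edgeR adjusted p = 0.0026). It was -2.57 after saline (SE 0.74, edgeR adjusted p = 0.23 in the fit of all libraries). Leaving out only the library labelled RV MCT replicate 5 gave -3.51 (edgeR adjusted p = 0.0064).

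**Figure D4:**
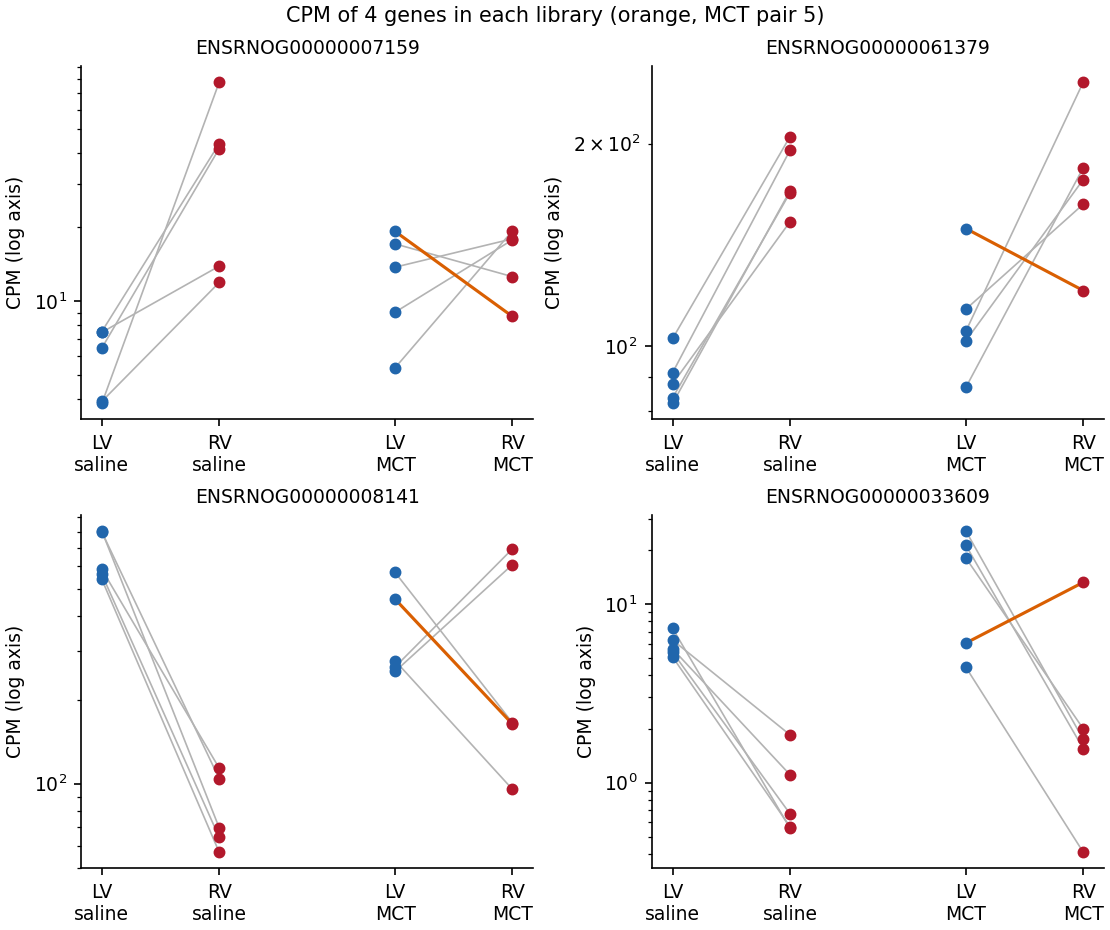
CPM (log axis) of 4 genes in each of the 20 libraries by group; blue points are LV, red points RV, lines join same-coded pairs and MCT pair 5 is orange. The chamber difference is present after saline in all 4, the MCT groups overlap widely in ENSRNOG00000008141 and ENSRNOG00000007159, and the difference is present in 4 of 5 MCT pairs in ENSRNOG00000061379 and ENSRNOG00000033609, with pair 5 reversed.

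The 8 genes called after saline in the fit of all libraries include 3 of these 4 and 5 others. With all pairs, 8 of 8 had their saline direction after MCT (56.5% of all genes did), each with a smaller difference, and 5 had an unadjusted p under 0.05 (1.86% of all genes). Without pair 5, 7 of 8 had it (59.5% of all genes), ENSRNOG00000008141 being the exception, and 6 had an unadjusted p under 0.05 (6.15% of all genes). They were chosen for a large saline difference, which favours a smaller one elsewhere.

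Without MCT pair 5, 10 of 11006 genes (0.0909%) differed between the chambers after MCT, 1 higher in the RV and 9 higher in the LV (edgeR adjusted p under 0.05), and 682 genes (6.2%) had an unadjusted p under 0.05. Pairs 1 to 4 left out in turn gave 0 calls each, with 177 to 247 genes at an unadjusted p under 0.05. Pair 5 was singled out after its values were seen, and these 10 genes are no estimate of the chamber difference. In pair 5 all 10 pointed the other way, and genes called only without a pair have to differ less, or the other way, in it.

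Of these 10 genes 3 belonged to the 80 saline chamber genes, ENSRNOG00000033609 and ENSRNOG00000061379 among them. The third was LV-high, with a difference of -3.94 without pair 5 (SE 0.56) and -3.51 after saline. It was at 1.11, 0.80, 0.10 and 0 CPM in RV MCT replicates 1 to 4 and at 11.4, 3.08, 5.06 and 11.7 CPM in LV MCT replicates 1 to 4. In pair 5 it was at 9.05 CPM in the library labelled RV and 4.12 CPM in the library labelled LV.

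The other 7 genes were LV-high in MCT pairs 1 to 4, with saline differences between -0.38 and 0.03. The clearest reversal among them was in a gene at 3.32, 5.88, 14.1 and 9.45 CPM in RV MCT replicates 1 to 4 and 29.1, 30.2, 29.7 and 24.9 CPM in LV MCT replicates 1 to 4. In pair 5 it was at 31.1 CPM in the library labelled RV and 5.22 CPM in the library labelled LV. In this gene each library of pair 5 lay near the other chamber's libraries of pairs 1 to 4. The gene was picked for its reversal, and that choice favours such values. After saline its RV and LV libraries overlapped, so the gene cannot tell from which chamber a library came. Its difference was -1.76 without pair 5 (SE 0.32, edgeR adjusted p = 0.040) and -0.27 after saline.

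**Figure D5:**
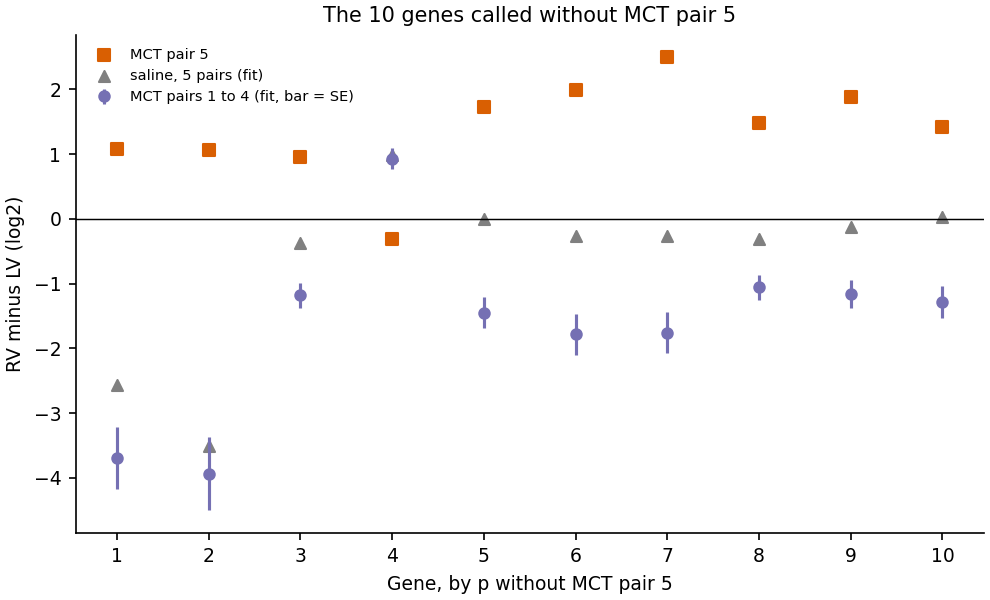
RV minus LV difference (log2) of the 10 genes called without MCT pair 5 (x axis, in order of p): purple points with SE bars are the fit without MCT pair 5, orange squares MCT pair 5 and grey triangles the saline fit. Orange squares lie on the other side of 0 from the purple points in all 10 genes, and 7 of the saline values lie between -0.38 and 0.03.

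The tools did not call the same number without pair 5. DESeq2 called 54 genes, which held all 10, limma voom 25 with 9 of the 10, and edgeR on the MCT libraries alone called 0, with 392 genes at an unadjusted p under 0.05. The description codes read as dates, in May or June for pairs 1 to 3 and in November for pairs 4 and 5. In pairs 1 to 3 edgeR called 3 genes, 1 of them among the 10, with 904 at an unadjusted p under 0.05. In pairs 4 and 5 it called 0, with 789 at an unadjusted p under 0.05.

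Whether the chamber difference itself changed with MCT was tested as the RV minus LV difference after MCT less that after saline. No gene passed (edgeR, 0% called, smallest adjusted p = 0.85), and 305 genes, or 2.79%, had an unadjusted p under 0.05. Without pair 5 edgeR again called 0 (smallest adjusted p = 0.34), with 390 genes at an unadjusted p under 0.05. With all pairs DESeq2 and limma voom each called 1 gene, ENSRNOG00000008141. Without MCT pair 3 edgeR called 1 gene, which was another. The median SE of this change was 0.35 on the log2 scale. Among the 80 saline chamber genes 79 had a smaller difference after MCT, and 35 an unadjusted p under 0.05, counts that the choice of these genes favours.

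Genes nearest to a chamber difference with all pairs were also read. Genes averaging 3 or more in log2 CPM, with the same direction in all 5 MCT pairs, were ordered by p, and the 10 with the smallest p in each direction were taken. Those higher in the RV had differences from 0.31 to 1.40 on the log2 scale with unadjusted p from 0.0012 to 0.022. All 10 were also higher in the RV after saline, by a median of 0.34. Those higher in the LV had differences from -0.66 to -0.27 with unadjusted p from 0.018 to 0.047. Of these, 6 of 10 were higher in the LV after saline, with a median over the 10 of -0.07. Among all genes tested 56.5% had the same direction after both treatments, so nothing is read from the 6 of 10. The first RV-high gene was at 13.5, 20.2, 23.3, 13.7 and 10.1 CPM in RV MCT replicates 1 to 5 and at 8.99, 8.07, 11.7, 5.57 and 9.62 CPM in LV MCT replicates 1 to 5. Its RV and LV libraries overlapped only between RV replicate 5 and LV replicate 3.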

How the data were processed

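The authors deposited raw read counts per Ensembl gene. The tools STAR 2.7.10a and HTSeq 0.11.3 and, without their roles, the builds mRatBN7.2 and rn6 are named per the submitters' processing notes. Per the labels' protocols, libraries were QuantSeq 3' kits sequenced in 2 runs. The strand setting is not given in the sources used here, so overlapping genes and near-identical copies could share counts. No gene name could be matched to the 30452 IDs, since 0 entries of the reference gene table held an Ensembl ID. The 27 gene and marker lists were therefore not tested, and the rule for named genes, which asked for a symbol and for list members, was applied without them.

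Counts were tested in R 4.3.3 with edgeR 4.0.16 (TMM, filterByExpr, robust quasi-likelihood fit of 4 group means over 20 libraries, Benjamini-Hochberg threshold 0.05), on 10929 genes with 99.8% of counts. The SE was derived from the F statistic. Log2 CPM used a prior count of 2. Alternatives used DESeq2 1.42.0 and limma 3.58.1, other filters and scaling, blocks, months and left-out libraries. vegan 2.7.1 gave genes detected. The fit was tested on simulated counts drawn independently, without pair effects. That outcome is not given here, so it does not measure the power behind the absence of calls. The members and lists were chosen with earlier results of these data known. The 4 printed genes were chosen after their values were seen, outside that rule, in place of an earlier choice by saline p. The fits combining the omission of MCT pair 5 with another tool, the reading of 100 genes in a left-out pair, the splits of the saline set and the overlap counts without pair 5 were also added after seeing the data.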

Additional observations from a re-analysis of the deposited data

Results flagged for a closer look

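In 1 of the 25 sets of 5 values looked at, a library stood far from its group, and chance gives about 1 in 20. This was ENSRNOG00000033609 at 13.2 CPM in the library labelled RV MCT replicate 5, against 0.41 to 2.01 CPM in the other RV MCT libraries. The gene had been picked by its p without MCT pair 5, which favours such a value, so the chance rate does not apply to it.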

How the results depend on the processing

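Of the alternatives for RV against LV after MCT, 24 gave 0 calls and 6 gave more. It gave 0 genes with RLE normalization, other filters, a month term, the MCT groups alone, DESeq2 and limma voom, and 3 within the May and June libraries. Leaving out 1 library or pair gave 0 to 10, and leaving out MCT pair 5 gave 54 with DESeq2 and 25 with limma voom. The change of the chamber difference gave 1 gene with DESeq2, limma voom, and without LV MCT replicate 3 and RV MCT replicate 4, and 0 to 1 with 1 library or pair left out. After saline the 8 genes became 88 with DESeq2, 125 with limma voom, 13 with RLE, 80 in a fit of saline libraries only and 0 within November. With 1 library or pair left out they were 0 to 11, and 0 without RV saline replicate 1, saline pair 2 or saline pair 3. ENSRNOG00000007159 was at -0.0090 with limma voom after MCT. ENSRNOG00000008141 ran from -0.48 to 0.17 with 1 MCT library left out. The cause was not tested.

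With each same-coded pair as a replicate block, 0 genes differed after MCT, 0 for the change and 9 after saline, and 7 after MCT without pair 5, of which 3 were among the 10. Deviations of same-coded MCT libraries correlated from -0.35 to 0.24, and 1 of 5 RV libraries matched its own LV library best. At 8 genes, picked with a cutoff that was set after a first look, that were on or off alike within saline pairs, same-coded MCT libraries differed 2 times in all (exact test over 120 pairings, p = 0.017). Low counts limit the genes below 5.34 CPM.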
